A study of Mus musculus with 9 samples.

Results

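A set of 27 genes is described here that were higher after knockdown of Eya3 in 66cl4 cells and lower again when IKK2-SE was added to the knockdown cells. They were chosen on measured values, from group means in CPM, the count of a gene scaled to a fixed total count per library. A member had at least 2 CPM in the knockdown, at least 1.5 times its scramble mean there, and at most 0.7 times its knockdown mean with IKK2-SE. Of 52208 genes in the count table, 10871 met the minimum, 919 of them also the first ratio and 33 also the second. Names of collagens and other matrix, guidance and keratin families, of unnamed gene models and of 3 single genes were left out by the rule. This dropped 6 genes (4930447F24Rik, Gm10040, Hspb7, Gm35853, Col1a2 and 1700096K18Rik) and left 27.

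The line 66cl4 is a mouse mammary carcinoma line that the labels call triple negative, and messenger RNA was sequenced in 9 libraries, 3 labelled as biological replicates in each of 3 groups. Scramble cells carried a scrambled hairpin (shScramble) and an Empty Vector, knockdown cells carried the hairpin shEya3 KD2 and the Empty Vector, and add-back cells carried shEya3 KD2 and IKK2-SE. Every group was held in puromycin after hairpin transduction and selected for mCherry. The table's columns name the hairpin KD3 where the sample titles say KD2, so which hairpin was used is not settled here; a second hairpin and IKK2-SE in scramble cells were not analysed here. Whether the replicates were separate transductions is not stated, and the p-values then speak only of spread among these libraries.

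IKK2 is the kinase that phosphorylates the inhibitors of NF-kB and marks them for destruction, which frees NF-kB to enter the nucleus, and IKK2-SE is a form made constantly active by serine-to-glutamate changes. NF-kB is mostly known as an activator of inflammatory and survival genes, and fewer genes are known to be lowered when it is active. Eya3 belongs to the Eyes absent family of transcriptional co-activators that also carry phosphatase activity.

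Library totals ran from 63601403 to 81534534 counts, and 16766 genes, all 27 members among them, had enough counts for testing. Eya3 stood at 62.0 to 64.9 CPM in scramble, 23.9 to 24.9 CPM in the knockdown and 24.9 to 29.1 CPM in the add-back. Nfkbia, which encodes an NF-kB inhibitor and is itself an NF-kB target, had means of 225, 43.5 and 109.8 CPM in the same order. Of the defining epithelial markers, Epcam and Cdh1 were at or under 0.0772 CPM and Krt18 at or under 0.144 CPM in every group mean. Krt8 had means of 638, 1306 and 1074 CPM and Vim 2810, 3744 and 2697 CPM. Of 11 tested mammary carcinoma markers, 8 were higher, Krt8 and Vim among them, and 2 lower in knockdown than in scramble (edgeR, adjusted p under 0.05). The lower ones were Krt14 (means of 1.26, 0.299 and 0.120 CPM) and Krt19 (0.615, 0.0585 and 0.0280 CPM). Of the receptor genes, Esr1 had means of 11.995, 16.2 and 20.1 CPM, Erbb2 had 56.3, 62.4 and 63.9 CPM, and Pgr had no counts. The 8 lymphocyte markers together reached at most 1.09 CPM in any library. The 9 macrophage markers summed to 52.8 to 56.1 CPM in scramble, 26.8 to 30.6 CPM in the knockdown and 38.9 to 41.7 CPM in the add-back. Only 4 of the 9 were above 1 CPM in any group. These were Cd68 (14.7, 4.12 and 3.43 CPM), Cd14 (15.6, 7.37 and 11.9 CPM), Mrc1 (6.10, 0.913 and 4.17 CPM) and Lyz2 (17.4, 16.2 and 20.2 CPM). Ptprc, Adgre1, Itgam and Aif1 reached at most 0.0593 CPM in any group mean. The 11 fibroblast markers summed to 235 to 243, 94.1 to 100.8 and 110.8 to 113.4 CPM, and the 8 endothelial markers to 9.14 to 10.6, 2.82 to 4.03 and 3.95 to 4.22 CPM. The macrophage and fibroblast sums were lowest in the knockdown libraries, where the members were highest, and Pdpn (means of 186, 32.4 and 42.3 CPM) and Pdgfra (48.7, 39.1 and 42.7 CPM) made up most of the fibroblast sum. Of the 8 fibroblast markers that could be tested, 4 were higher and 3 lower in knockdown than in scramble (edgeR, adjusted p under 0.05), against 27.7% and 29.9% of all tested genes. Col3a1 (0 CPM in scramble and 13.2 CPM in the knockdown), Col1a2 and Pdgfrb (1.26, 6.96 and 10.7 CPM) were among the higher ones. The endothelial sums of knockdown and add-back overlapped. The part of these markers in the members' differences was not tested. In bulk RNA, fewer cells of a kind and less RNA per cell cannot be told apart.

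The genes fall into a few families by known function. Cdsn, Cnfn, Slurp1 and Scel belong to the outer layers of stratified epithelium. Ndrg1, Bhlhe41 and Stbd1 are linked to low oxygen or glycogen, and Bhlhe41 and Dbp to the circadian clock. Cav1, Spns2, Has2, Kcnk10, Tnfrsf8, Pcdh19, Lrrn4cl, Car6, Slc9a3r2 and Mfsd9 act at or across the cell membrane or outside it, and the others include enzymes, cytoskeletal proteins and regulators.

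All 27 matched the GENCODE annotation of GRCm38/mm10 and all were protein coding, which the rule partly sets because it leaves out the names of unnamed gene models. Of tested genes with a position, 75.4% were protein coding. RefSeq promoter entries (GRCm38.p6) were found for 19 of them, and the 250 bases before the first listed start were searched on both strands. Ndrg1, Lrrn4cl, Klhl30, Map6, Dynap, Zbtb7c, Slurp1 and Has2 had no entry. The palindrome CACGTG is the E-box that the clock and Bhlhe41 families are known to bind. It contains the core ACGTG of the hypoxia response element on both strands, so each match of the first is also a match of the second. CACGTG occurred in 4 of 19 member promoters (21.1%) and in 8.08% of the 10751 promoters of tested genes. Of the 4, Bhlhe41, Eef2k and Tnfrsf8 are shown 5′ to 3′ in the gene's direction with CACGTG in capitals, beside the promoter of the clock gene Dbp, whose capitals mark ACGTG. Only the stretch around the match that no GENCODE exon covers is given, which is the whole window for Eef2k and Tnfrsf8, 112 bases for Bhlhe41 and 91 for Dbp. In Car6 the match lay within a GENCODE exon.
Bhlhe41 (chr6:145865559.0-145865670.0, minus strand): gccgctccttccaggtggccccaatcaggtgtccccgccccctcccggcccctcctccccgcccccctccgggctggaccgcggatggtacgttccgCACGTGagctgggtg
Eef2k (chr7:120842581.0-120842830.0, plus strand): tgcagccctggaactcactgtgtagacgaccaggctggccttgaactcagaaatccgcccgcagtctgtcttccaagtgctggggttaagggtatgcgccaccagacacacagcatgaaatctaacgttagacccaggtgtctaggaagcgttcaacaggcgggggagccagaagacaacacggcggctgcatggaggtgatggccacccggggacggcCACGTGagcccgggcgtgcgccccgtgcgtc
Tnfrsf8 (chr4:145315165.0-145315414.0, minus strand): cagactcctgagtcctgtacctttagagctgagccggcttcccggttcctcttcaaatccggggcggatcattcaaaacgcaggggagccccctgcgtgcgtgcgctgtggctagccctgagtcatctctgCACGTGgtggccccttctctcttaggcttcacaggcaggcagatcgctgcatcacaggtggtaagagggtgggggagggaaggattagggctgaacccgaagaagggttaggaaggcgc
Dbp (chr7:45704997.0-45705087.0, plus strand): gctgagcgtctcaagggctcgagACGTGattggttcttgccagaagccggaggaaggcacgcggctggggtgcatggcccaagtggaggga
The E-box began at base -153 in Bhlhe41, -31 in Eef2k, -149 in Car6 and -119 in Tnfrsf8, counted back from the base before the RefSeq start, which is base -1, and ACGTG at base -227 in Dbp. Cav1 and Suox also held ACGTG, which made 7 of 19 (36.8%), against 21.4% of the promoters of tested genes. The other core, GCGTG, was in 10 of 19 (52.6%), against 44.1%, and the SP1 motif GGGCGG in 14 of 19 (73.7%), against 56.7%. An AP-1 site (TGACTCA or TGAGTCA) was found in Scel and Tnfrsf8 (10.5%, against 3.55%), the NF-kB consensus in Usp13 and Tnfrsf8 (10.5%, against 8.50%) and GGAATG of TEAD factors in Kcnk10 and AI661453 (10.5%, against 10.9%). For the p53 family only a part of the full site was searched, and this part was in Cdsn (5.26%, against 6.10%). The CArG box of SRF was in Stbd1 (5.26%, against 1.13%). Median GC content was 60.0% in the member promoters and 59.2% in those of tested genes. These counts describe letters in a short window, and 8 of the 27 promoters were not searched.

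Across the 27 genes, scramble means ran from 0.0651 CPM (Has2) to 273 CPM (Ndrg1), with 7 genes under 1 CPM. Knockdown means ran from 2.29 CPM (Scel) to 418 CPM (Ndrg1), and 20 genes were at or above 10 CPM. The ratio of knockdown to scramble had a median of 2.96 and ran from 1.53 for Ndrg1 to 62.0 for Cnfn. The ratio of add-back to knockdown had a median of 0.635 and ran from 0.216 for Cnfn to 0.699 for Dbp. These ratios chose the genes, so they and the log2 fold changes of those comparisons are given as description, without a test. In all 27 the 3 knockdown libraries lay above the other 6, a pattern found in 4.69% of tested genes and largely set by the rule. Of all tested genes, 57.5% differed between knockdown and scramble and 10.4% between add-back and knockdown at an adjusted p under 0.05 (edgeR). Fold changes below are on the log2 scale after TMM scaling, ± SE, with 3 libraries in each group.

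**Figure D1:**
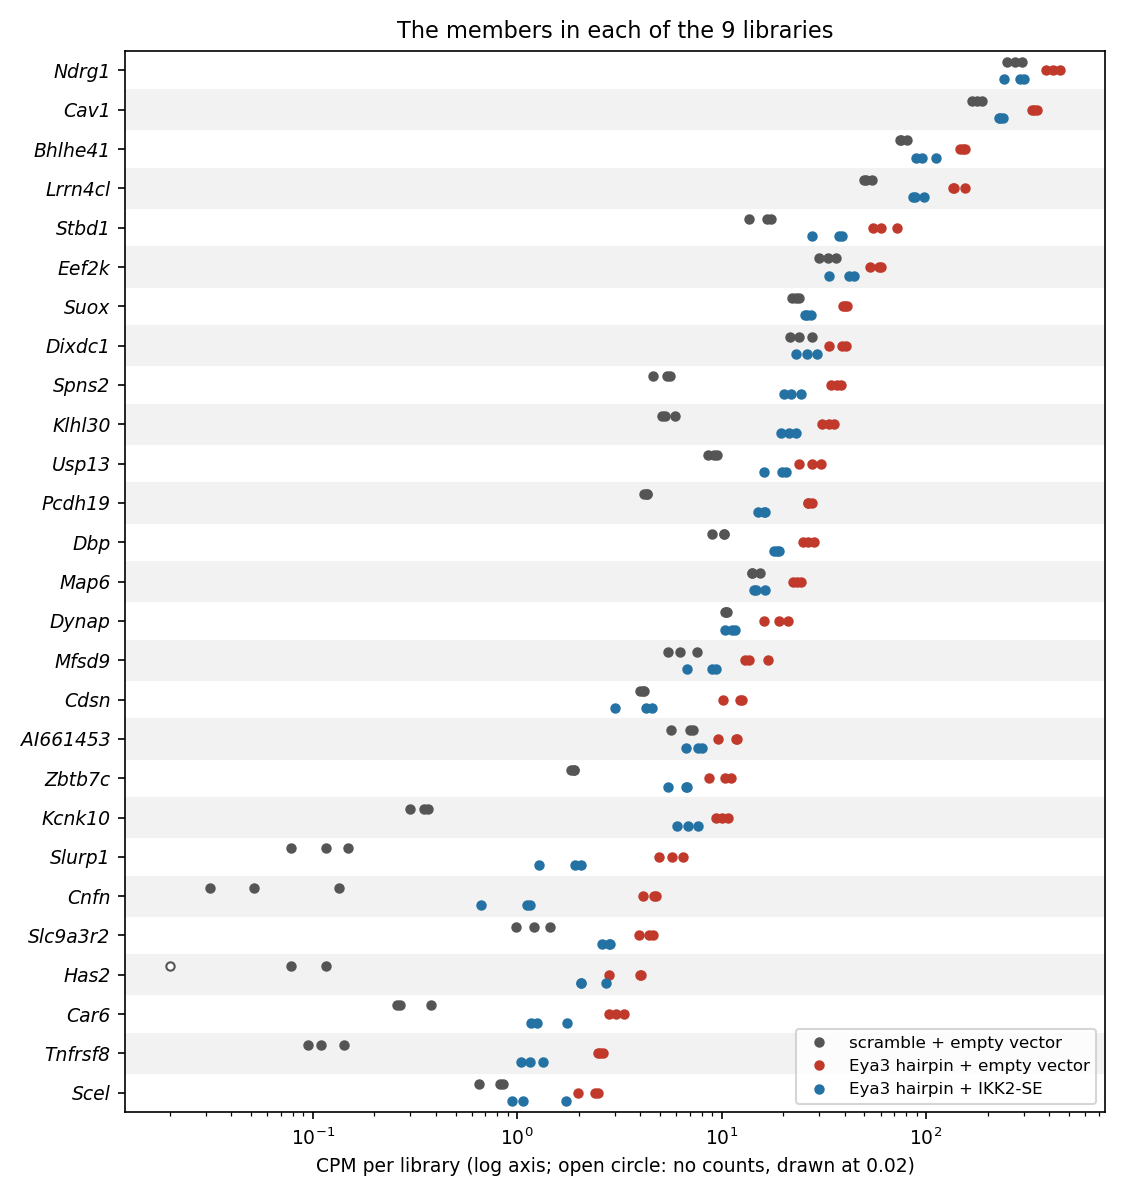
Level of each of the 27 genes in every library, in CPM on a log axis, with 1 point per library and the 3 groups in separate colours. The knockdown points of every gene lie above its other 6 points. The scramble points of Cnfn, Slurp1, Has2, Kcnk10, Car6, Tnfrsf8 and Scel lie under 1 CPM.

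Near the limits of the rule the genes shade into their neighbours. Scel (2.29 CPM) and Tnfrsf8 (2.55 CPM) were the members with the lowest knockdown level, and Ngef (1.86 CPM) and Anxa8 (1.81 CPM) fell just short of 2 CPM. By the ratio of knockdown to scramble, Ndrg1 (1.53) and Dixdc1 (1.54) were just inside, and Ddit4 (1.41) and Fbln2 (1.33) just outside. By the ratio of add-back to knockdown, Dbp (0.699) and Dixdc1 (0.695) were just inside, and Gbe1 (0.703), which encodes the glycogen branching enzyme, and Angptl6 (0.705) just outside. Among the names the rule left out, Hspb7 had means of 0.0543, 24.3 and 6.90 CPM in scramble, knockdown and add-back and Col1a2 0.0692, 4.10 and 1.66 CPM, while Adm (70.6, 107 and 77.0 CPM) met the first ratio (1.52) but not the second (0.718) and Vim met neither (1.33 and 0.721).

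**Figure D2:**
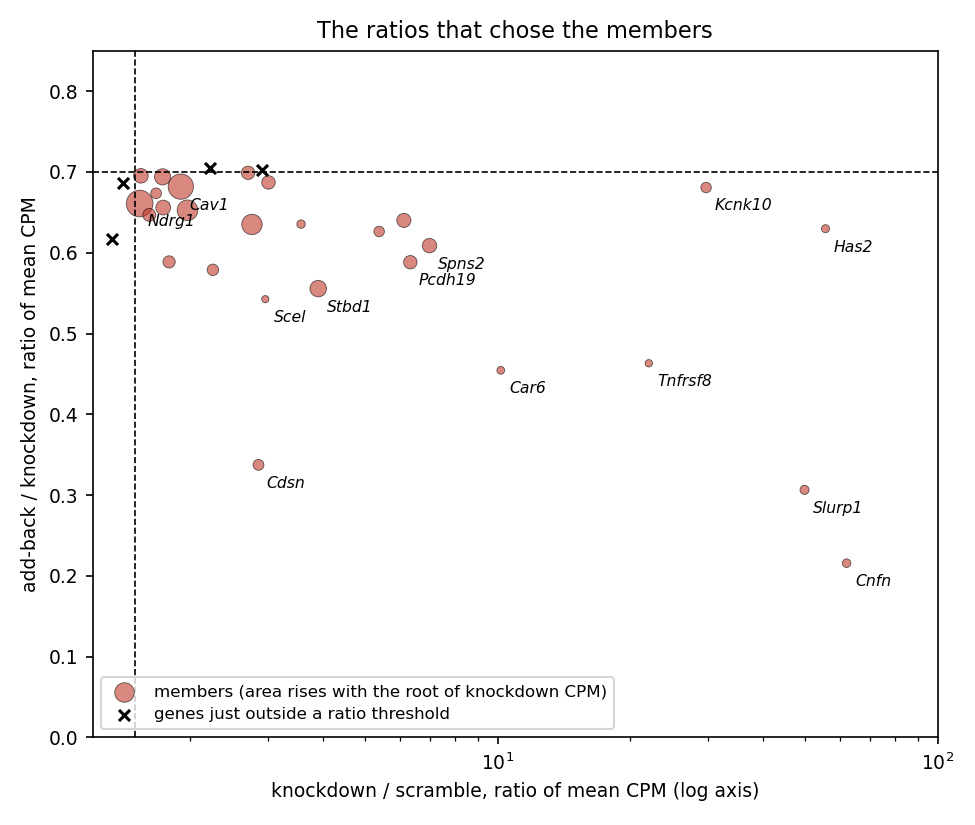
Ratio of the knockdown to the scramble mean (horizontal, log axis) against the ratio of the add-back to the knockdown mean (vertical), for the members and the genes just outside the limits, with the limits of 1.5 and 0.7 as lines. Cnfn and Slurp1 stand apart at the far right and bottom, with ratios of 62.0 and 49.8 on the horizontal axis and 0.216 and 0.306 on the vertical one, while Ndrg1, Dixdc1 and Eef2k sit at the corner of the limits.

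Of the 4 epidermal genes, Cnfn, Slurp1 and Cdsn had the 3 lowest ratios of add-back to knockdown among the members. Cornifelin (Cnfn, chr7:25367620-25369724, minus strand) is a component of the cornified envelope, the protein shell of the outermost skin cells. It had 0.0314, 0.0518 and 0.135 CPM in scramble libraries 1 to 3, 4.69, 4.75 and 4.12 CPM in the knockdown and 1.11, 1.15 and 0.663 CPM in the add-back. The 3 groups were fully separated, with scramble close to 0 (2, 4 and 10 counts) and add-back between the others. The difference between knockdown and scramble was 5.94 ± 0.30, and that between add-back and knockdown -2.23 ± 0.20. Add-back minus scramble was 3.71 ± 0.36 (edgeR adjusted p 2.27e-07).

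Slurp1 (chr15:74724318-74728034, minus strand) encodes a small secreted protein of the Ly6 family made by keratinocytes, whose loss in humans causes a thickening of the palms and soles. It stood at 0.0786, 0.117 and 0.149 CPM in scramble libraries 1 to 3, 6.46, 4.97 and 5.70 CPM in the knockdown and 1.92, 2.05 and 1.28 CPM in the add-back. As for Cnfn, the groups did not overlap and add-back lay between the others. The difference was 5.64 ± 0.25 from scramble to knockdown and -1.73 ± 0.17 from knockdown to add-back, which left add-back above scramble by 3.92 ± 0.28 (edgeR adjusted p 5.86e-09).

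Corneodesmosin (Cdsn, chr17:35552128-35557180, plus strand) is the adhesive glycoprotein that holds cornified cells together. It measured 4.12, 4.16 and 3.98 CPM in scramble libraries 1 to 3, 12.3, 12.6 and 10.2 CPM in the knockdown and 4.26, 4.56 and 3.00 CPM in the add-back. The knockdown libraries stood alone, and add-back and scramble overlapped. The fold changes were 1.56 ± 0.13 and -1.59 ± 0.13 on the log2 scale. Add-back minus scramble was -0.03 ± 0.14 (95% interval -0.32 to 0.26, edgeR adjusted p 0.878).

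Sciellin (Scel, chr14:103513342-103612797, plus strand), a precursor of the cornified envelope, gave 0.849, 0.648 and 0.825 CPM in scramble libraries 1 to 3, 2.40, 1.99 and 2.48 CPM in the knockdown and 0.94, 1.72 and 1.07 CPM in the add-back. Add-back library 2 was well above its fellows, and all 3 lay above scramble. Log2 fold changes were 1.62 ± 0.22 and -0.91 ± 0.21. Against scramble, Scel was higher in add-back by 0.71 ± 0.23 (edgeR adjusted p 0.0168), a call that was lost without scramble library 2 (0.60, adjusted p 0.0742) or without add-back library 2 (0.40, adjusted p 0.134).

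Other genes of the same tissue programme, a list put together after the members were known and so given as values only, often had values near 0. No counts at all were found for involucrin (Ivl), loricrin (Lor), filaggrin (Flg), Flg2, Hrnr and Rptn, proteins that make up the envelope or the layer beneath it, nor for Sprr3, Csta1 and Dsc3. The envelope plakin Ppl had means of 3.73, 3.42 and 3.47 CPM in scramble, knockdown and add-back, and Sbsn, a secreted epidermal protein, 11.8, 6.09 and 4.22 CPM. The transglutaminase Tgm1, which crosslinks the envelope, had means of 0.128, 0.378 and 0.572 CPM. Klf4, a transcription factor of the skin barrier, had 13.7, 110.0 and 89.4 CPM, and Trp63, the master regulator of stratified epithelium, 0.0278, 18.5 and 26.3 CPM. Dmkn, which encodes the secreted epidermal protein dermokine, had the members' order at a low level, with means of 0.267, 0.561 and 0.292 CPM. Lypd3, a surface protein of squamous epithelium, had 0.822 CPM in scramble and no counts in the other groups, and Grhl1, an epithelial transcription factor, had 3.48, 2.06 and 1.95 CPM. The listed genes thus ran in several orders, and the means of Trp63 were in a different order from those of the 4 members with roles in cornified cells.

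Among the genes linked to low oxygen and glycogen, Ndrg1 (chr15:66929318-66969640, minus strand) was the most abundant member. It encodes a cytoplasmic protein induced by stress and hypoxia and described as a suppressor of metastasis. Its levels were 296, 274 and 248 CPM in scramble libraries 1 to 3, 453, 416 and 386 CPM in the knockdown and 288, 302 and 239.9 CPM in the add-back. Knockdown was highest, add-back and scramble overlapped, and within each group library 3 was the lowest. The differences were 0.67 ± 0.10 and -0.62 ± 0.10, and add-back minus scramble was 0.04 ± 0.10 (95% interval -0.18 to 0.26, edgeR adjusted p 0.75). Its relatives had other means: Ndrg3 56.4, 70.7 and 70.9 CPM and Ndrg4 10.8, 1.80 and 1.39 CPM in scramble, knockdown and add-back.

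Bhlhe41 (chr6:145858243-145865558, minus strand), also called Dec2, is a helix-loop-helix repressor that binds E-boxes, responds to hypoxia and damps the clock. It reached 80.3, 74.4 and 75.5 CPM in scramble libraries 1 to 3, 152, 146 and 155 CPM in the knockdown and 95.5, 111 and 89.1 CPM in the add-back. The groups were separated, with add-back nearer to scramble. Its log2 fold changes were 1.03 ± 0.07 and -0.64 ± 0.07, and 0.38 ± 0.07 for add-back against scramble (edgeR adjusted p 0.000208).

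Stbd1 (chr5:92603041-92606579, plus strand) encodes a glycogen-binding membrane protein that takes part in delivering glycogen to lysosomes. Its values were 17.4, 16.7 and 13.7 CPM in scramble libraries 1 to 3, 71.8, 59.9 and 54.9 CPM in the knockdown and 37.4, 38.7 and 27.6 CPM in the add-back. Library 3 was the lowest of each group, and the groups did not overlap. The fold changes of 2.02 ± 0.16 and -0.87 ± 0.15 left add-back above scramble by 1.14 ± 0.16 (edgeR adjusted p 0.000204).

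A list of 36 hypoxia and glycolysis genes, of which Ndrg1 is a member here, was measured for comparison. It was chosen with earlier results of these data known, and it holds Adm, which the rule leaves out by name, and Ddit4. The comparisons of knockdown with scramble and of add-back with knockdown share the knockdown libraries, so their counts are not independent. Of the other 31 that could be tested, 15 were higher and 2 lower in knockdown than in scramble (all tested genes 27.7% and 29.9%), and 0 were higher and 18 lower in add-back than in knockdown (all tested genes 5.61% and 4.82%; edgeR, adjusted p under 0.05). At an unadjusted p under 0.05, and by DESeq2 or limma, the count higher was also 0. The count of 18 was 9 without knockdown library 1, 8 without knockdown library 2 and 9 without add-back library 3, and the count of 2 was 4 when libraries were scaled by their totals and also 4 with the replicate block. The median log2 fold change of the 31 genes was 0.20 for the knockdown and -0.19 for add-back against knockdown, against -0.00 and 0.00 for all tested genes. Adm, the vasodilator peptide adrenomedullin, rose by 0.65 ± 0.05 and fell by 0.51 ± 0.05 with IKK2-SE. Ddit4, an inhibitor of mTORC1, moved by 0.54 ± 0.06 and -0.57 ± 0.06. Car9, the membrane carbonic anhydrase of hypoxic cells, had means of 208, 503 and 450.0 CPM. Egln3, a HIF prolyl hydroxylase, was lower in both steps, with means of 556, 135 and 96.1 CPM. In add-back against scramble, 9 of the 31 were higher and 9 lower.

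**Figure D3:**
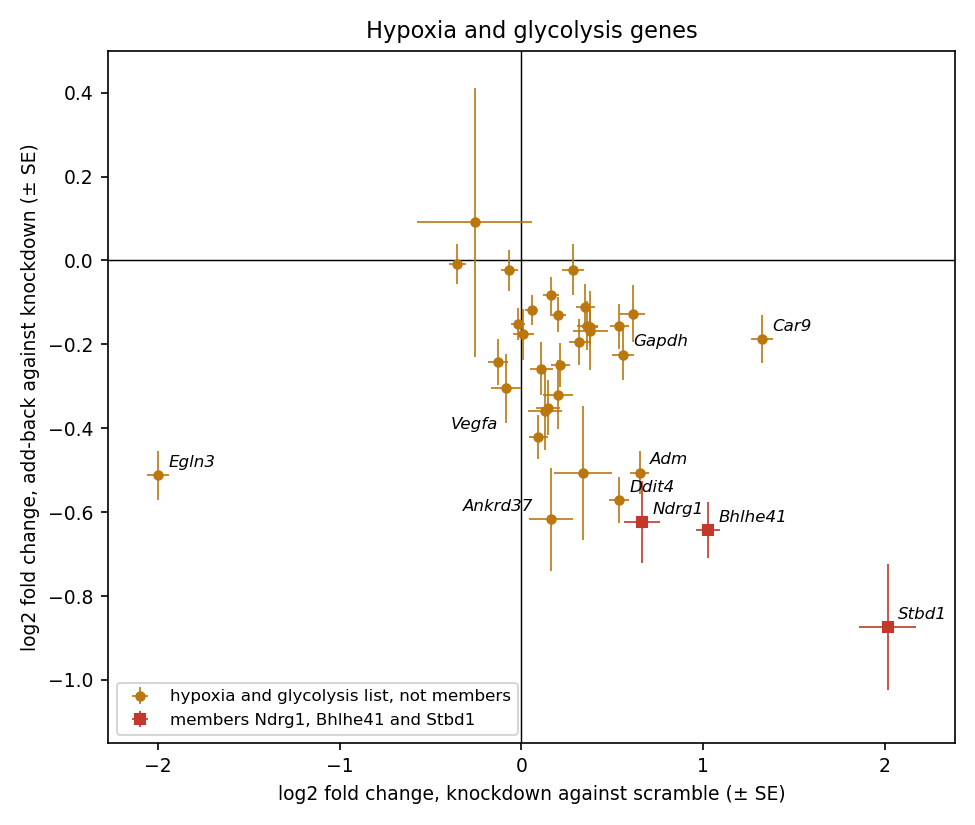
Log2 fold change of add-back against knockdown (vertical) plotted against that of knockdown against scramble (horizontal), each ± SE, for the 31 tested hypoxia and glycolysis genes that are not members and for the members Ndrg1, Bhlhe41 and Stbd1. Most of the list lies below 0 on the vertical axis at small values on both axes. The 3 members lie at -0.62, -0.64 and -0.87 on the vertical axis, a low position that the rule set for them. Ankrd37 (-0.62) and Ddit4 (-0.57) of the list lie close to Ndrg1 on that axis. Both axes use the knockdown libraries, so no relation between them is read from the plot.

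Dbp (chr7:45705088-45710203, plus strand) is a transcription factor of the PAR bZIP family and a classic output of the circadian clock. It stood at 10.3, 10.2 and 8.98 CPM in scramble libraries 1 to 3, 28.2, 25.1 and 26.4 CPM in the knockdown and 18.8, 19.0 and 18.0 CPM in the add-back. All 3 groups were narrow and separate. Its 2 steps measured 1.49 ± 0.07 and -0.54 ± 0.07, and add-back stayed above scramble by 0.94 ± 0.07 (edgeR adjusted p 7.93e-09). Clock genes outside the members, listed after the members were known, had mixed means in scramble, knockdown and add-back. Per1, Nr1d1 and Bhlhe40, all genes that the clock drives through E-boxes, were highest in the knockdown, at 40.4, 51.6 and 39.2 CPM, at 51.3, 67.7 and 43.7 CPM and at 103, 134 and 98.0 CPM. Per2 (17.1, 28.3 and 26.4 CPM) and Tef (46.4, 77.1 and 68.5 CPM), a relative of Dbp, were high in both hairpin groups. Arntl, the clock's main activator, was lowest in the knockdown at 16.2, 11.2 and 15.02 CPM, and its partner Clock was at 93.0, 70.4 and 67.9 CPM.

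Of the membrane and matrix genes, Cav1 (chr6:17306335-17341452, plus strand) was the most abundant. Caveolin-1 coats the small membrane pits called caveolae. It had 187, 178 and 168 CPM in scramble libraries 1 to 3, 348, 338 and 329 CPM in the knockdown and 227, 237 and 229 CPM in the add-back. No library of one group reached another group, and add-back lay nearer to scramble. The differences were 0.98 ± 0.04 and -0.58 ± 0.04, and 0.40 ± 0.04 for add-back against scramble (edgeR adjusted p 7.72e-07). Its partner genes were listed after the members were known and are given as values only. Cav2, which assembles with Cav1, had means of 42.5, 54.6 and 47.1 CPM, Cavin1 611, 566 and 487 CPM, Cavin3 30.2, 35.1 and 26.5 CPM and Ehd2 126.6, 77.7 and 74.3 CPM.

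Lrrn4cl (chr19:8850768-8853909, plus strand), which encodes a membrane protein, measured 54.2, 51.1 and 49.97 CPM in scramble libraries 1 to 3, 137, 136 and 156 CPM in the knockdown and 86.1, 98.2 and 88.0 CPM in the add-back. Its groups were separate, and knockdown library 3 was the highest of all. In log2 terms the steps were 1.51 ± 0.06 and -0.68 ± 0.06. Add-back was above scramble by 0.83 ± 0.06 (edgeR adjusted p 8.59e-09).

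Spns2 (chr11:72451638-72489904, minus strand) exports sphingosine 1-phosphate, a lipid signal for migrating cells. Its levels were 5.61, 5.42 and 4.62 CPM in scramble libraries 1 to 3, 38.2, 36.8 and 34.4 CPM in the knockdown and 21.9, 24.4 and 20.3 CPM in the add-back. Add-back lay between the other groups with no overlap, closer to the knockdown. Its fold changes came to 2.86 ± 0.09 and -0.74 ± 0.08, with 2.11 ± 0.09 for add-back against scramble (edgeR adjusted p 6.04e-12). Sphk1, which makes this lipid, had means in the other direction, 42.5, 7.37 and 6.89 CPM, and the receptor S1pr2 41.2, 30.9 and 36.6 CPM.

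Has2 (chr15:56665627-56694539, minus strand), the main synthase of the matrix polymer hyaluronan, was nearly absent from scramble cells, with 5, 9 and 0 counts. It had 0.0786, 0.117 and 0 CPM in scramble libraries 1 to 3, 4.05, 3.98 and 2.82 CPM in the knockdown and 2.05, 2.73 and 2.05 CPM in the add-back. The add-back libraries were all below the knockdown and far above scramble. On the log2 scale these were differences of 5.81 ± 0.37 and -0.70 ± 0.21, and add-back was above scramble by 5.11 ± 0.39 (edgeR adjusted p 1.30e-08), the largest such difference among the members. Its sister enzymes were low in every group, Has1 with means of 0.00864, 0.0557 and 0.0382 CPM and Has3 with 0.452, 0.395 and 0.364 CPM. Ugdh, which makes the sugar precursor, had means of 137.9, 351 and 293 CPM, and Cd44, the hyaluronan receptor, 453, 384 and 340.3 CPM.

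Kcnk10 (chr12:98429437-98578310, minus strand) encodes TREK-2, a potassium leak channel of the K2P family. It gave 0.299, 0.35 and 0.365 CPM in scramble libraries 1 to 3, 10.7, 9.99 and 9.43 CPM in the knockdown and 6.82, 7.68 and 6.02 CPM in the add-back. Scramble was close to 0 and the other groups were separate. Of the members it lost the smallest share of its knockdown difference with IKK2-SE, 33.0% in CPM. The fold changes were 4.93 ± 0.15, -0.58 ± 0.10 and, against scramble, 4.35 ± 0.15 (edgeR adjusted p 8.33e-13).

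Tnfrsf8 (chr4:145267137-145315164, minus strand) encodes CD30, a receptor of the tumour necrosis factor family best known from activated lymphocytes and Hodgkin lymphoma, and one that itself signals to NF-kB. Its values were 0.11, 0.143 and 0.0946 CPM in scramble libraries 1 to 3, 2.49, 2.63 and 2.54 CPM in the knockdown and 1.05, 1.35 and 1.15 CPM in the add-back. The 3 groups formed 3 separate levels, the middle one being add-back. Log2 fold changes were 4.48 ± 0.23 and -1.14 ± 0.16, and add-back exceeded scramble by 3.34 ± 0.25 (edgeR adjusted p 6.71e-09). None of the 8 lymphocyte markers was above 1 CPM in any group.

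Protocadherin 19 (Pcdh19, chrX:133582860-133688987, minus strand) is a homophilic adhesion protein known from its role in human epilepsy. It stood at 4.15, 4.32 and 4.30 CPM in scramble libraries 1 to 3, 26.6, 26.4 and 27.8 CPM in the knockdown and 16.1, 15.02 and 16.4 CPM in the add-back. The spread within groups was small and the groups were far apart. Its 2 steps measured 2.71 ± 0.07 and -0.79 ± 0.06, with 1.91 ± 0.07 against scramble (edgeR adjusted p 6.31e-13). Of 16 other tested cadherin and junction genes, 7 were higher and 8 lower in the knockdown (all tested genes 27.7% and 29.9%). In add-back against knockdown, 2 of them were higher and 3 lower, or 6 lower with no filter on low counts (all tested genes 5.61% and 4.82%). Pcdh18 had means of 16.3, 125 and 120.1 CPM and was not called in add-back against knockdown (edgeR adjusted p 0.227). Pcdh17, with 87.1, 160.1 and 198 CPM, was higher in add-back than in knockdown by 0.28 ± 0.05 (edgeR adjusted p 0.000687).

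Car6 (chr4:150187015-150201332, minus strand) encodes the secreted carbonic anhydrase of saliva and milk. It measured 0.267, 0.259 and 0.379 CPM in scramble libraries 1 to 3, 3.05, 3.31 and 2.82 CPM in the knockdown and 1.26, 1.75 and 1.17 CPM in the add-back. Scramble, add-back and knockdown were separate in that order. In log2 terms the steps were 3.38 ± 0.22 and -1.16 ± 0.18, and 2.22 ± 0.23 against scramble (edgeR adjusted p 4.94e-07). Slc9a3r2 (chr17:24639286-24650327, minus strand), a PDZ scaffold also called NHERF2 that tethers ion transporters, had 1.45, 1.21 and 0.987 CPM in scramble libraries 1 to 3, 3.96, 4.63 and 4.41 CPM in the knockdown and 2.85, 2.82 and 2.59 CPM in the add-back. Its add-back libraries lay midway and apart from both others. Its fold changes came to 1.89 ± 0.14 and -0.68 ± 0.13, and 1.21 ± 0.15 against scramble (edgeR adjusted p 3.12e-06).

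Mfsd9 (chr1:40772038-40790687, minus strand), a transporter-like protein of the major facilitator superfamily, gave 7.56, 6.27 and 5.49 CPM in scramble libraries 1 to 3, 16.9, 13.6 and 13.0 CPM in the knockdown and 8.99, 9.42 and 6.77 CPM in the add-back. Library 3 was the lowest of every group, and add-back and scramble overlapped. On the log2 scale these were differences of 1.22 ± 0.14 and -0.81 ± 0.14. Add-back was above scramble by 0.41 ± 0.15 (edgeR adjusted p 0.0284), which did not pass without scramble library 2 or 3 or add-back library 1 or 2, with differences of 0.31 to 0.40 and adjusted p from 0.0746 to 0.113.

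Eef2k (chr7:120842831-120907450, plus strand) encodes the kinase that phosphorylates elongation factor 2 and slows protein synthesis. It reached 36.4, 33.1 and 30.0 CPM in scramble libraries 1 to 3, 60.1, 58.8 and 53.2 CPM in the knockdown and 41.8, 44.3 and 33.3 CPM in the add-back. The knockdown stood alone, and add-back library 3 lay within the scramble range. The fold changes were 0.84 ± 0.10 and -0.55 ± 0.10. The difference from scramble of 0.29 ± 0.10 (edgeR adjusted p 0.0343) was lost without the same 4 libraries in turn as for Mfsd9, with values of 0.20 to 0.29 and adjusted p from 0.0717 to 0.110.

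Suox (chr10:128669894-128674073, minus strand), the mitochondrial enzyme that oxidises sulfite to sulfate, had 22.2, 23.1 and 24.0 CPM in scramble libraries 1 to 3, 39.1, 40.0 and 41.1 CPM in the knockdown and 26.1, 25.5 and 27.3 CPM in the add-back. Its groups were tight and did not overlap. Log2 fold changes were 0.84 ± 0.05 and -0.64 ± 0.05, and add-back was above scramble by 0.21 ± 0.05 (edgeR adjusted p 0.00204), the smallest difference called. Usp13 (chr3:32817546-32938071, plus strand), an enzyme that removes ubiquitin, stood at 9.20, 9.54 and 8.55 CPM in scramble libraries 1 to 3, 30.5, 27.8 and 23.9 CPM in the knockdown and 19.8, 20.6 and 16.1 CPM in the add-back. Add-back was midway and clear of both. Its 2 steps measured 1.64 ± 0.10 and -0.57 ± 0.10, and 1.07 ± 0.10 against scramble (edgeR adjusted p 3.02e-07).

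Dixdc1 (chr9:50662752-50739517, minus strand), a DIX-domain protein that acts on the Wnt pathway and binds actin, gave 27.7, 23.8 and 21.7 CPM in scramble libraries 1 to 3, 40.5, 38.9 and 33.5 CPM in the knockdown and 26.1, 29.2 and 23.2 CPM in the add-back. The knockdown was above both others, which overlapped. In log2 terms the steps were 0.68 ± 0.10 and -0.55 ± 0.10, with 0.13 ± 0.10 against scramble (95% interval -0.10 to 0.35, edgeR adjusted p 0.335). Map6 (chr7:99267447-99337137, plus strand), which stabilises microtubules and is best known from neurons, measured 15.4, 14.0 and 14.1 CPM in scramble libraries 1 to 3, 22.3, 23.4 and 24.5 CPM in the knockdown and 14.7, 16.2 and 14.5 CPM in the add-back. Here too add-back and scramble overlapped. Its fold changes came to 0.74 ± 0.07 and -0.66 ± 0.07, with 0.08 ± 0.07 against scramble (95% interval -0.06 to 0.23, edgeR adjusted p 0.324).

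Klhl30 (chr1:91351016-91362416, plus strand), a member of the kelch-like family, had 5.91, 5.09 and 5.30 CPM in scramble libraries 1 to 3, 35.3, 33.4 and 31.0 CPM in the knockdown and 21.3, 23.1 and 19.5 CPM in the add-back. All groups were separate, with add-back nearer to the knockdown. On the log2 scale these were differences of 2.66 ± 0.08 and -0.67 ± 0.07, and 1.99 ± 0.08 against scramble (edgeR adjusted p 6.67e-12). The zinc-finger regulator Zbtb7c on chromosome 18 had 1.84, 1.89 and 1.89 CPM in scramble libraries 1 to 3, 10.4, 11.1 and 8.70 CPM in the knockdown and 6.73, 6.74 and 5.46 CPM in the add-back. Its scramble values were almost equal, and the add-back values lay above them and below the knockdown. The fold changes were 2.47 ± 0.12 and -0.70 ± 0.11, and 1.77 ± 0.13 against scramble (edgeR adjusted p 4.30e-09).

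Dynap, a dynactin-associated membrane protein gene on chromosome 18, gave 10.5, 10.7 and 10.4 CPM in scramble libraries 1 to 3, 16.2, 21.2 and 19.0 CPM in the knockdown and 10.4, 11.6 and 11.2 CPM in the add-back. Knockdown library 1 was the lowest of its group but still above the other 6, and add-back overlapped scramble. Log2 fold changes were 0.89 ± 0.09 and -0.79 ± 0.09, with 0.10 ± 0.09 against scramble (95% interval -0.09 to 0.29, edgeR adjusted p 0.392). AI661453 (chr17:47436615-47470638, plus strand) stood at 7.03, 7.23 and 5.64 CPM in scramble libraries 1 to 3, 11.9, 11.8 and 9.59 CPM in the knockdown and 7.69, 7.99 and 6.73 CPM in the add-back. Add-back and scramble overlapped. Its 2 steps measured 0.79 ± 0.11 and -0.60 ± 0.11, with 0.19 ± 0.11 against scramble (95% interval -0.05 to 0.44, edgeR adjusted p 0.166).

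Add-back against scramble is the comparison that the rule did not use directly. Its ratio of mean CPM is the product of both ratios of the rule, so it depends on how the members were chosen. The rule fixes no direction here, but it caps this ratio at 0.7 times the ratio of knockdown to scramble. Genes with a small ratio of knockdown to scramble could thus rise only a little above scramble. Among them were Ndrg1 (1.53), Dixdc1 (1.54), Map6 (1.61), AI661453 (1.67) and Dynap (1.79). The comparison asks how far the members lay from control cells when the knockdown also carried IKK2-SE. Of the 27, 21 were higher in add-back, 0 were lower and 6 were not called (edgeR, adjusted p under 0.05), while of all tested genes 55.8% were called, 27% higher and 28.7% lower. The count lower was also 0 at an unadjusted p under 0.05 and by DESeq2 or limma. The 6 were Ndrg1, Dixdc1, Map6, Dynap, Cdsn and AI661453, and their intervals allow differences between -0.32 (Cdsn) and 0.44 (AI661453). The called differences ran from 0.21 for Suox to 5.11 for Has2. By library, 19 members had all 3 add-back values above all 3 scramble values (27.9% of tested genes) and 8 overlapped. The median of the 27 was 0.94 against -0.00 for all tested genes. The members were chosen to stand at 1.5 times scramble or more in the knockdown, and add-back cells carry the same hairpin. Nothing particular to the members is therefore read from this median, from the counts of higher and lower members or from their adjusted p.

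**Figure D4:**
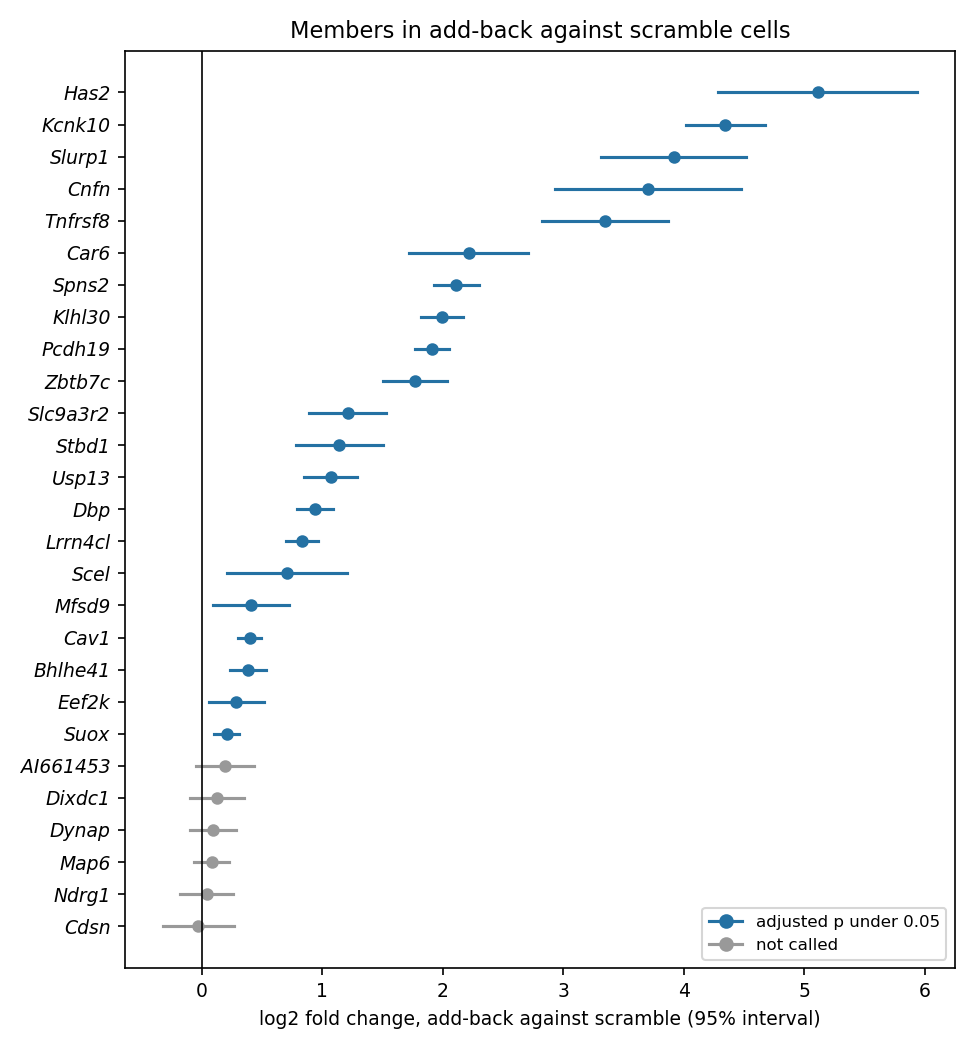
Log2 fold change of add-back against scramble for the 27 genes, as points with 95% intervals from edgeR, ordered by size, with called and not called genes in different colours and a line at 0. Has2, Kcnk10, Slurp1, Cnfn and Tnfrsf8 lie above 3, and the 6 genes that were not called have intervals that cross 0.

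The share of the knockdown difference that was gone in the add-back, in CPM, is made of the same group means as the ratios of the rule. The rule therefore sets a lowest possible share. That limit is high for genes with a small ratio of knockdown to scramble, such as Ndrg1 (1.53) and Map6 (1.61). The shares are given as description only. The share had a median of 67.0%. The share was at least 90% in 4 genes, namely Cdsn (102%), Ndrg1 (97.4%), Dynap (93.2%) and Map6 (92.9%), and at least 50% in 19. The 8 others were Kcnk10 (33.0%), Has2 (37.7%), Klhl30 (43.0%), Spns2 (45.6%), Zbtb7c (45.9%), Usp13 (46.9%), Dbp (47.7%) and Pcdh19 (48.9%). Genes that were near 0 in scramble were found on both sides of 50%, since Cnfn (79.7%) and Slurp1 (70.8%) lost more than Has2 and Kcnk10. For such genes the share nearly restates the ratio of add-back to knockdown that the rule used.

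Within groups the members leaned to particular libraries. The rule did not use the order of libraries, but its group means are made of the same values. The lean of the members can therefore partly follow from how they were chosen. Add-back library 2 was the highest of its group in 24 of 27 members (88.9%), against 27% of tested genes, and add-back library 3 the lowest in 20 (74.1%), against 32.7%. Scramble library 1 and knockdown library 1 were each the highest in 14 members (51.9%), against 36.3% and 36.6% of tested genes. Scramble library 3 and knockdown library 3 were each the lowest in 16 (59.3%), against 37.5% and 33.0%. Of the 31 hypoxia and glycolysis genes that are not members, add-back library 2 was the highest for 19 (61.3%), a smaller share than among the members. Add-back library 3 was the lowest for 27 of them (87.1%), and scramble library 3 and knockdown library 3 for 25 each (80.6%). The libraries thus differed in a way that the members and the hypoxia list shared, and its part in the differences between groups was not tested. Without add-back library 3 the rule kept 20 of the 27 members, and without knockdown library 1 it kept 21.

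**Figure D5:**
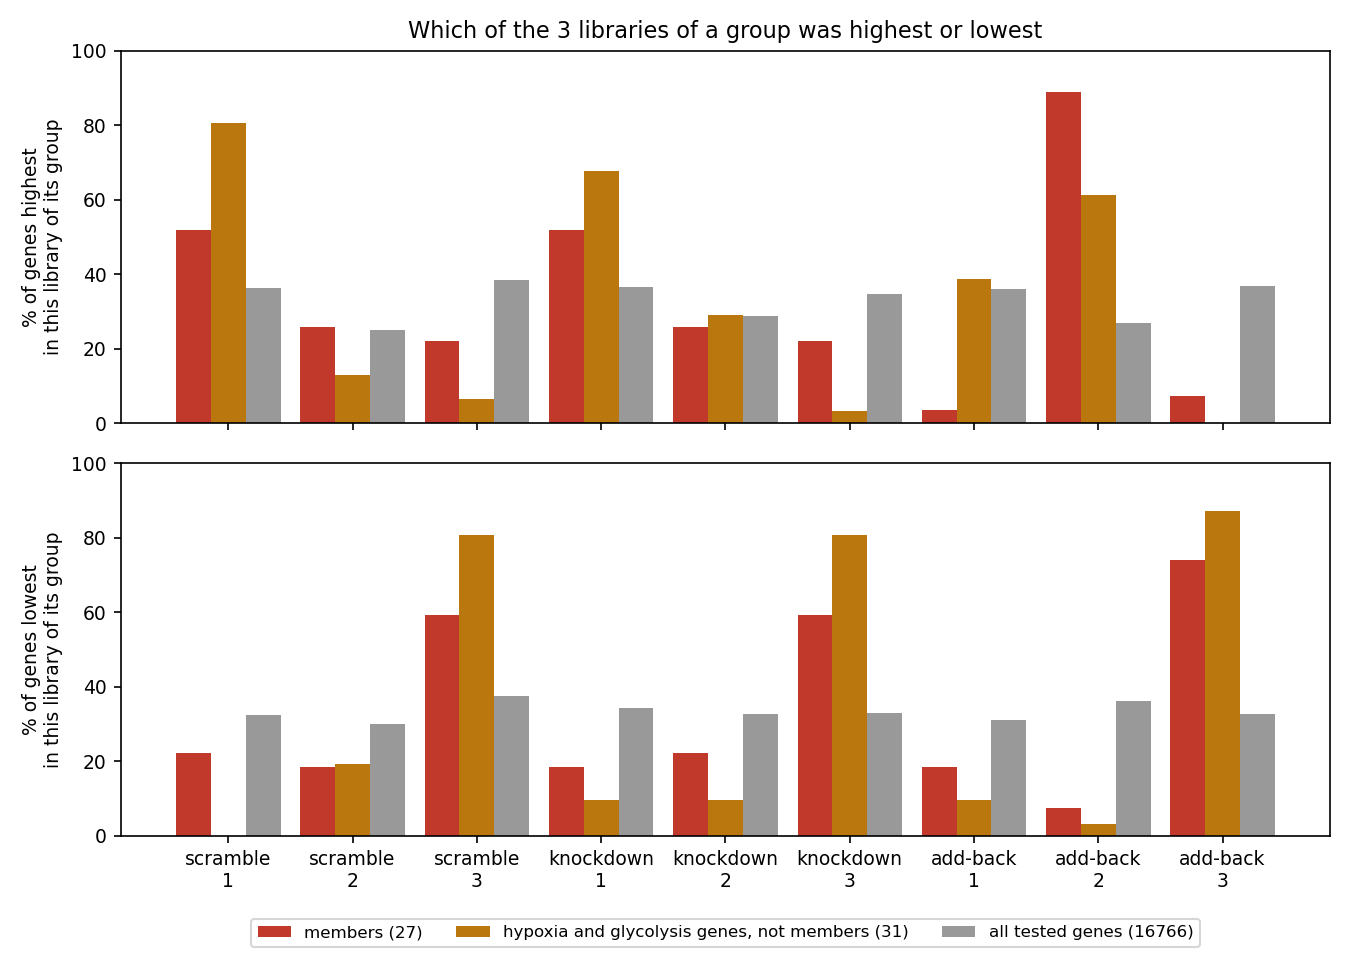
Share of genes, in percent, whose highest (top) or lowest (bottom) value within a group came from each library, for the 27 members, for the 31 hypoxia and glycolysis genes that are not members and for all 16766 tested genes. Bars start at 0. The tallest member bar is add-back library 2 in the top panel, at 88.9%, and in the bottom panel the bars of library 3 exceed those of all tested genes in each group.

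The members were spread over 16 chromosomes, with 4 on chromosome 7 (14.8%) and 3 each on 15 and 17 (11.1% each). Of tested genes with a position, 7.78% lay on chromosome 7, 3.91% on 15 and 4.73% on 17. The closest pair, Car6 and Tnfrsf8, was 4871851 bases apart. The median knockdown fold change of the 40 nearest tested genes (39 for Suox) ran from -0.49 around Suox to 0.39 around Stbd1, with AI661453 (0.36) and Kcnk10 (0.31) next. For add-back against knockdown the same medians ran from -0.08 to 0.04. Exons of 10 members overlapped a gene on the opposite strand, and since the strand setting of the counting is not given in the sources used here, reads from such pairs cannot be told apart. Mybbp1a, which overlaps Spns2, had means of 641, 619 and 606 CPM, Sphk2 beside Dbp 37.8, 31.5 and 34.0 CPM, and Them6 beside Slurp1 30.8, 25.7 and 24.1 CPM. 1700001C19Rik, which overlaps AI661453, had 0.840, 0.554 and 0.653 CPM. The remaining 6 partners in the table were highest in the knockdown with the add-back between, all at low level: Gm17035 (0.623, 1.33 and 0.759 CPM) and Gm2895 with Ndrg1, Gm43909 with Bhlhe41, Gm15774 with Eef2k, Gm37915 with Mfsd9, and Has2os (0.0130, 0.432 and 0.128 CPM) with Has2.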

How the data were processed

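Messenger RNA of 66cl4 cells was sequenced in 9 libraries, from RNA purified on columns, per the labels' protocols. The deposited values are raw counts, not normalized, as whole numbers for each gene symbol in each library. FastQC, MultiQC, STAR and the mm10 build are named without versions, per the submitters' processing notes. The counter, with its annotation and strandedness, is not given in the sources used here. Columns were matched to libraries by arm and replicate number.

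CPM were computed from column totals and used for levels and for the rule. The filter filterByExpr of edgeR (minimum count 10, minimum total 15) kept 16766 genes. Counts were TMM-scaled, and all 9 libraries entered 1 quasi-likelihood model of group in edgeR 4.0.16 (R 4.3.3), with robust spread, 6 residual degrees of freedom and a common coefficient of variation of 5.26%. Benjamini-Hochberg adjustment ran over every tested gene, with calls at 0.05. Standard errors of log2 values are |log2 fold change| divided by the root of F. Replicates of a group differed beyond sampling noise (chi-square per degree of freedom 3.62 to 18.8). The procedure was tested on simulated data.

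The members, gene lists, markers and the rule for named genes were chosen with earlier results of these data known. Members were named by level, by the size of both ratios, by adjusted p against scramble, by presence on a list and by nearness to a limit, and the others were added by role. Lists of partner genes (cornified envelope, clock, caveolae, hyaluronan, sphingosine 1-phosphate, NDRG family) were put together after the members were known and have no test. Alternatives were DESeq2 size factors, library totals, other filters, DESeq2 1.42.0, limma 3.58.1 with voom, a replicate block, fits on the compared groups only and leaving out each library in turn. Positions are 1-based on GRCm38/mm10 from GENCODE.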

Additional observations from a re-analysis of the deposited data

How the results depend on the processing

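Of the 27 genes, all stayed in the set when CPM were scaled by TMM or by DESeq2 size factors (32 genes each) or when no name was dropped (33). With folds of 2 and 0.5 it held 5 genes (Cdsn, Slurp1, Cnfn, Car6 and Tnfrsf8), and with no minimum CPM beyond the count filter 134, all 27 among them. Leaving out 1 library at a time gave 23 to 39 genes, and Ndrg1, Eef2k, Dixdc1, Usp13, Dbp, AI661453 and Kcnk10 left the set in at least 1 such case. In add-back against scramble, 21 members were higher under every scaling, filter and tool tried and 22 with the replicate block, which added AI661453 (adjusted p 0.0358). Leaving out 1 library gave 18 to 21, the calls of Eef2k, Mfsd9 and Scel being the ones lost, and 0 members were lower in any setting. Over all genes, add-back against knockdown called 1749 genes, 2678 with the replicate block and 1168 to 1800 with 1 library left out. Of these, 808 were lower, 1374 with the block and 492 to 825 with 1 library left out. Scaling by library totals put 65.9% of those called genes higher, against 53.8%. Over all tested genes, same-numbered libraries deviated together only weakly (correlations of -0.0111 to 0.123), and the main model did not pair them by number. These correlations do not cover a pairing that acts on fewer genes. Library 3 was the lowest of its group for 59.3% of members in scramble and in knockdown and for 74.1% in add-back. Whether the numbers mark a shared batch was not tested. With 3 libraries a group, differences of low genes such as Has2 and Cnfn in scramble rest on a few counts. The cause of these shifts was not tested.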

Other observations

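Several lists that hold no member were measured in the same comparisons (edgeR, adjusted p under 0.05, background shares of all tested genes as in the report). A pair with many calls in add-back against knockdown is described here. Others had few such calls. The Notch pathway had 1 higher and 1 lower of 16 tested genes, and the insulin-like growth factor system 2 higher and 0 lower of 12. Of 22 tested genes of the integrated stress response, 12 were higher and 7 lower in the knockdown, and 3 were higher and 14 lower in add-back against knockdown. Its summed level was 4031 to 4133 CPM in scramble, 4107 to 4241 CPM in the knockdown and 3835 to 3922 CPM in the add-back. The 28 NF-kB targets had counts in the other direction, 2 higher and 18 lower in the knockdown and 25 higher with IKK2-SE against the knockdown.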
